A study of Mus musculus with 6 samples.

Results

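The genes described here take fatty acids through oxidation in mitochondria and peroxisomes, or cleave their coenzyme A (CoA) thioesters, in the adult mouse kidney. They were taken from a list of 40 gene symbols that covers the carnitine shuttle, acyl-CoA synthetases, the mitochondrial and peroxisomal oxidation enzymes, acyl-CoA thioesterases, a fatty acid binding protein and 2 regulators. Of the 40 genes, 38 were measured, among 22180 genes tested in all. Acsl1 and Acot8 had no transcript cluster with a single gene symbol and were not analysed here. A transcript cluster is the set of array probes for 1 locus, and where a gene had several, the one with the highest mean was used.

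RNA of kidney pieces from 6 mouse samples was hybridised to Affymetrix Mouse Gene 2.1 ST arrays, 1 array for each sample. The 3 arrays labelled Pax28 dKO (replicate 1 male, replicates 3 and 5 female) came from adult mice homozygous for floxed alleles of Pax2 and Pax8, a pair of transcription factors of the renal epithelium, that carried the tamoxifen-inducible Rosa26CreER. The 3 Control arrays (replicates 2 and 6 female, replicate 4 male) came from Cre-negative mice, and all mice of both groups received tamoxifen. Tamoxifen was injected into the peritoneum at 50 mg/kg in courses of 3 injections, the first when the mice were 8 weeks old and the second at 10 weeks, and the harvest followed the final injection by 14 days. Mice of both groups ate a breeder chow until 12 weeks of age. Rosa26CreER is driven by a widely active locus, so recombination is not limited to one renal cell type, and the labels give no strain. Whether each array is a separate animal is not labelled, so p-values measure only how much these samples vary, which may be technical.

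Pax8 and Pax2 were not lower on the arrays labelled Pax28 dKO. Pax8 had log2 values of 10.11, 10.59 and 10.39 on the arrays labelled Pax28 dKO (replicates 1, 3 and 5), against 9.09, 9.00 and 8.89 in Control (replicates 2, 4 and 6). Pax8 was thus higher, by 1.36 ± 0.12 on the log2 scale (limma estimate ± SE, adjusted p = 0.0037). Pax2 had log2 values of 6.11, 6.49 and 6.16 on the arrays labelled Pax28 dKO and 6.09, 5.77 and 6.08 in Control, a difference of 0.27 ± 0.10 (limma adjusted p = 0.19). The exact two-sided permutation p was 0.1 for both genes, the smallest that 3 against 3 arrays allow. Probes outside the deleted part of a gene check nothing, and the deleted part is not given in the sources used here, so the groups are called by their labels. The array medians lay between 3.81 and 3.87 on the log2 scale, and sex-specific transcripts fitted the labelled sex of all 6 arrays.

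Fatty acids are a main fuel of the proximal tubule. Long chains are bound to CoA, carried into mitochondria as carnitine esters and shortened there in repeated rounds of dehydrogenation, hydration, a second dehydrogenation and thiolysis. Peroxisomes shorten very long, branched and dicarboxylic chains with oxidases in place of dehydrogenases. Acyl-CoA thioesterases release the free acid and CoA in the cytosol, the mitochondria or the peroxisomes. Many of these genes are known targets of the nuclear receptor PPARα, encoded by Ppara.

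Of the 38 measured genes, 8 were lower on the arrays labelled Pax28 dKO and none was higher at a limma adjusted p below 0.05. These 8 are 21.1% of the genes, beside 3.08% of all 22180 genes tested that were called lower and 4.12% that were called higher. At an unadjusted p below 0.05, 15 of the 38 were lower and 0 were higher, beside 10.5% of all genes tested that were lower and 11.6% that were higher at that level. The 8 genes were the thioesterases Acot3, Acot1, Acot12, Acot4 and Acot13, the peroxisomal enzymes Acox2 and Decr2 and the mitochondrial dehydrogenase Hadh. Their falls were between 1.26-fold for Hadh and 2.70-fold for Acot3. The median log2 difference of the 38 genes was −0.19 (range −1.43 to 0.11), beside −0.0062 for all genes tested, and 30 of the 38 had a negative difference, as had 11442 of the 22180 genes.

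Leaving out 1 array at a time kept only Acot3 among the 8 below the threshold in all 6 fits, and 1 to 4 of the 38 genes were then called lower. In 15 of the 38 genes (39.5%) all arrays labelled Pax28 dKO lay below all Control arrays, beside 10.8% of all genes tested, and in none did they all lie above, beside 11.7%.

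**Figure D1:**
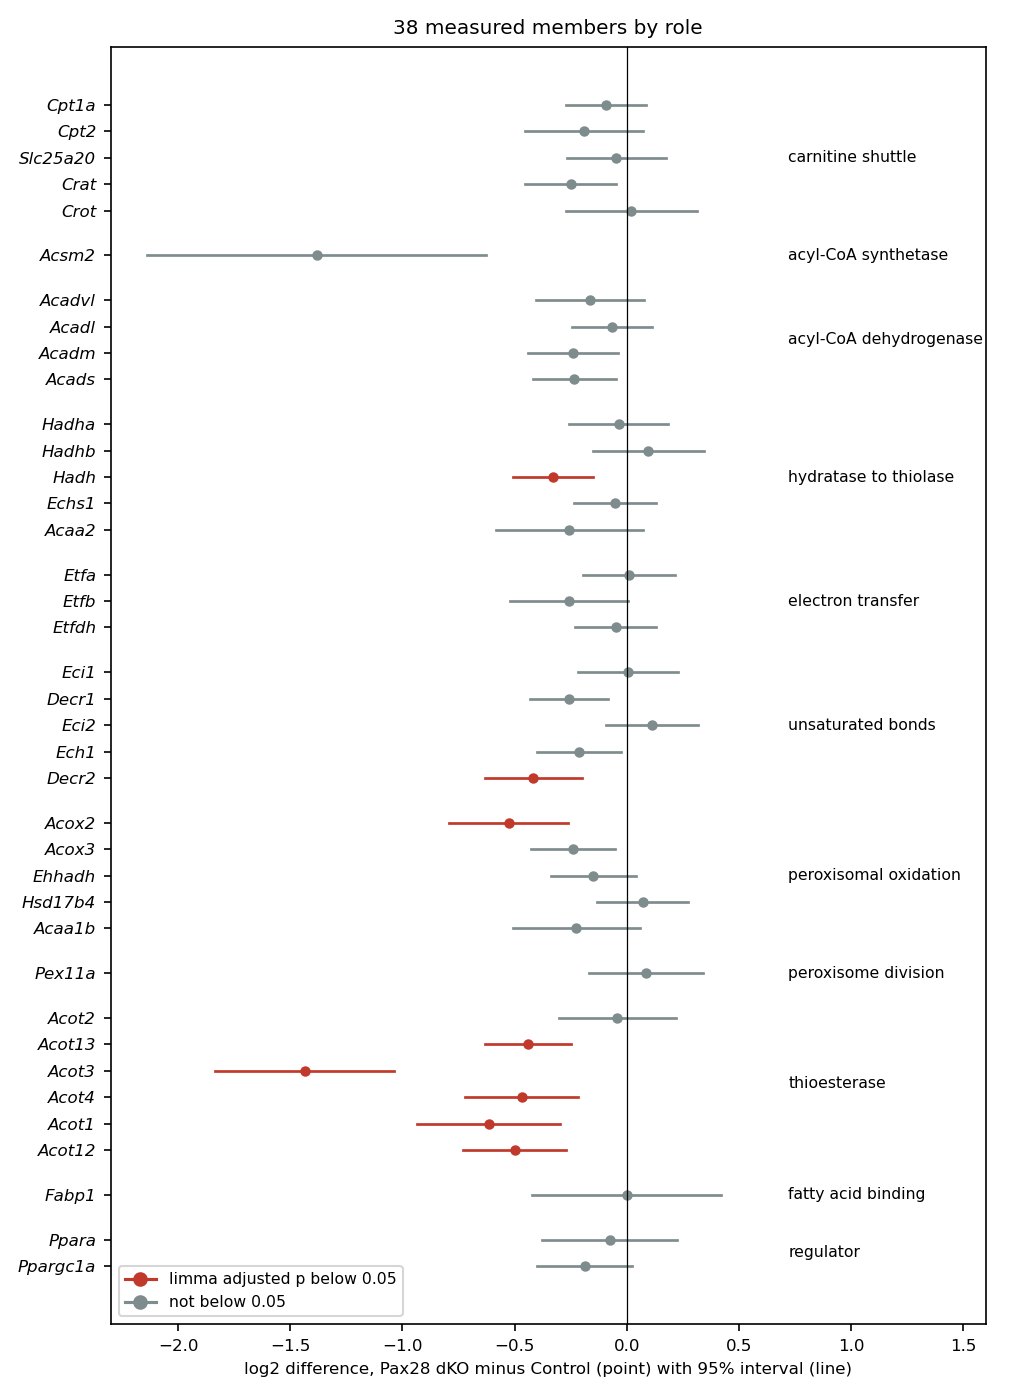
Log2 difference between the arrays labelled Pax28 dKO and Control for each of the 38 measured genes (point) with its 95% interval (line), arranged by role from the carnitine shuttle at the top to the regulators at the bottom. The 8 genes in red had a limma adjusted p below 0.05, and 5 of them are thioesterases; the differences run from −1.43 for Acot3 to 0.11 for Eci2.

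The acyl-CoA thioesterases held the most calls of any role: 5 of the 6 measured were lower, beside 3.08% of all genes tested. Their median log2 difference was −0.48. Acot2 (mitochondrial), Acot1 (cytosolic), Acot4 and Acot3 (both peroxisomal) are close paralogs of 1 family, and in the RefSeq annotation of GRCm38.p6 they follow each other in that order on chromosome 12, with Acot5 and Acot6 next. Because the paralogs are close in sequence, array probes may pick up RNA of a neighbour, and the value of each is uncertain to that extent. Acot12, on chromosome 13, and Acot13 belong to other families. The 250 bases before the first listed RefSeq start are shown for the 4 neighbours, because Acot2 was not called and Acot3 had the largest fall of the 38 genes, and for Acot12, the other called thioesterase found in the promoter table. Capitals mark a match to the repeat to which PPARα binds with its partner RXR, 2 copies of AGGTCA with 1 base of any kind between them, searched on both strands with at most 2 mismatches.
Acot3 promoter, chr12:84051894-84052143, plus strand: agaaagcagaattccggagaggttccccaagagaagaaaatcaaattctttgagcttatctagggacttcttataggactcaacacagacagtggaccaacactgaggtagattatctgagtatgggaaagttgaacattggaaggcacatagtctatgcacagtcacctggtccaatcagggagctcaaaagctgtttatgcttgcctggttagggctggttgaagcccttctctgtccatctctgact
Acot1 promoter, chr12:84009252-84009501, plus strand: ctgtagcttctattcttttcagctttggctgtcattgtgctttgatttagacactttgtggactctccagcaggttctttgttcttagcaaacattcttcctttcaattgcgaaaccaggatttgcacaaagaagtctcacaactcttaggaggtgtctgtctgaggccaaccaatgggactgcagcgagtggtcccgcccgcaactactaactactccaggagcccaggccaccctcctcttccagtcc
Acot4 promoter, chr12:84038129-84038378, plus strand: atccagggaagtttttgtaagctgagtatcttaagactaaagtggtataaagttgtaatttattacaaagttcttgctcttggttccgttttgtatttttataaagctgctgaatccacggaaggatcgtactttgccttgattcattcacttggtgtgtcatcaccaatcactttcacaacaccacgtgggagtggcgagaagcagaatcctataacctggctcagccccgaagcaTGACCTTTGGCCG
Acot2 promoter, chr12:83987611-83987860, plus strand: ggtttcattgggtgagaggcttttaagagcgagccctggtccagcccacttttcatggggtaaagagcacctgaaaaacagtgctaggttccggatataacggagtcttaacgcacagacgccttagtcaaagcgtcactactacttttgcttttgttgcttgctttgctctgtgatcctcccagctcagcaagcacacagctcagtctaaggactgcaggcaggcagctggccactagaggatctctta
Acot12 promoter, chr13:91741271-91741520, plus strand: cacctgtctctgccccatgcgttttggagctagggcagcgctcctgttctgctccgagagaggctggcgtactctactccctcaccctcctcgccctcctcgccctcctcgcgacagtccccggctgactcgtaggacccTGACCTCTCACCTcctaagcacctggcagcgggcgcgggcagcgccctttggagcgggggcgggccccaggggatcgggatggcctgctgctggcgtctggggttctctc
Acot4 and Acot12 held a match in this window, with 2 mismatches and 1 mismatch, and Acot3, Acot1 and Acot2 held none. Of 27025 RefSeq promoters of the same length, 859 (3.18%) held one, as did 5 of the 33 promoters found for the listed genes, those of Echs1, Etfa, Acot4, Acot12 and Fabp1. The core GCGTGAC, part of the sequence that Pax2 and Pax8 bind, was in 0 of the 33 and in 508 (1.88%) of the 27025, searched on both strands without mismatches. A match describes the letters of the window and is no evidence of binding.

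Acot3, which cleaves long-chain acyl-CoA in peroxisomes, had log2 values of 6.49, 7.17 and 7.23 on the arrays labelled Pax28 dKO (replicates 1, 3 and 5, the order used throughout), against 8.80, 7.40 and 8.99 in Control (replicates 2, 4 and 6). The groups did not overlap, although the male Control, replicate 4, lay just above the female arrays labelled Pax28 dKO. The difference was −1.43 ± 0.17, a 2.70-fold fall (limma adjusted p = 0.0079). It stayed below the threshold without any 1 array (adjusted p between 0.0026 and 0.047).

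Acot1, the cytosolic enzyme of the family, had log2 values of 6.78, 7.11 and 7.10 on the arrays labelled Pax28 dKO and 8.04, 7.21 and 7.59 in Control. The groups did not overlap, and the lowest Control array was again the male. The difference was −0.62 ± 0.13, a 1.53-fold fall (limma adjusted p = 0.044). Acot4, whose peroxisomal enzyme acts on succinyl-CoA and other dicarboxylic esters, had log2 values of 6.96, 6.70 and 6.85 on the arrays labelled Pax28 dKO, against 7.28, 7.21 and 7.43 in Control, and the groups lay apart. Its difference was −0.47 ± 0.11, a 1.38-fold fall (limma adjusted p = 0.049), and its second cluster gave −0.59 ± 0.15.

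Acot2, the mitochondrial paralog, was not called. Its log2 values were 10.13, 10.30 and 10.37 on the arrays labelled Pax28 dKO and 10.56, 9.89 and 10.48 in Control, so the groups overlapped. The difference was −0.04 ± 0.11, with a 95% interval of −0.30 to 0.22 (limma adjusted p = 0.87). That interval does not reach the point estimates of Acot1, Acot4 or Acot3. It does overlap the 95% intervals of Acot1 (−0.93 to −0.30) and Acot4 (−0.72 to −0.22), but not that of Acot3 (−1.83 to −1.04). The difference between paralogs was not itself tested. Within males Acot2 differed by 0.245 and within females by −0.19.

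Acot13, a small thioesterase of the mitochondrial surface, had log2 values of 9.42, 9.53 and 9.49 on the arrays labelled Pax28 dKO and 10.05, 9.77 and 9.95 in Control, with no overlap. It fell 1.36-fold, by −0.44 ± 0.08 on the log2 scale (limma adjusted p = 0.026). Acot12, a cytosolic enzyme that hydrolyses acetyl-CoA, had log2 values of 9.80, 8.76 and 8.73 on the arrays labelled Pax28 dKO and 9.43, 10.12 and 9.25 in Control. The groups overlapped because the male arrays, replicates 1 and 4, were the highest of their groups. With sex in the model the difference was −0.50 ± 0.10, a 1.41-fold fall (limma adjusted p = 0.032). Without any 1 array, Acot1 and Acot13 were above the threshold each time (adjusted p between 0.069 and 0.14 for Acot1 and between 0.051 and 0.0998 for Acot13), and Acot4 and Acot12 were called in 2 of 6 fits each. Those 2 fits leave out a male array, replicate 1 or 4, and both are the same females-only fit.

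**Figure D2:**
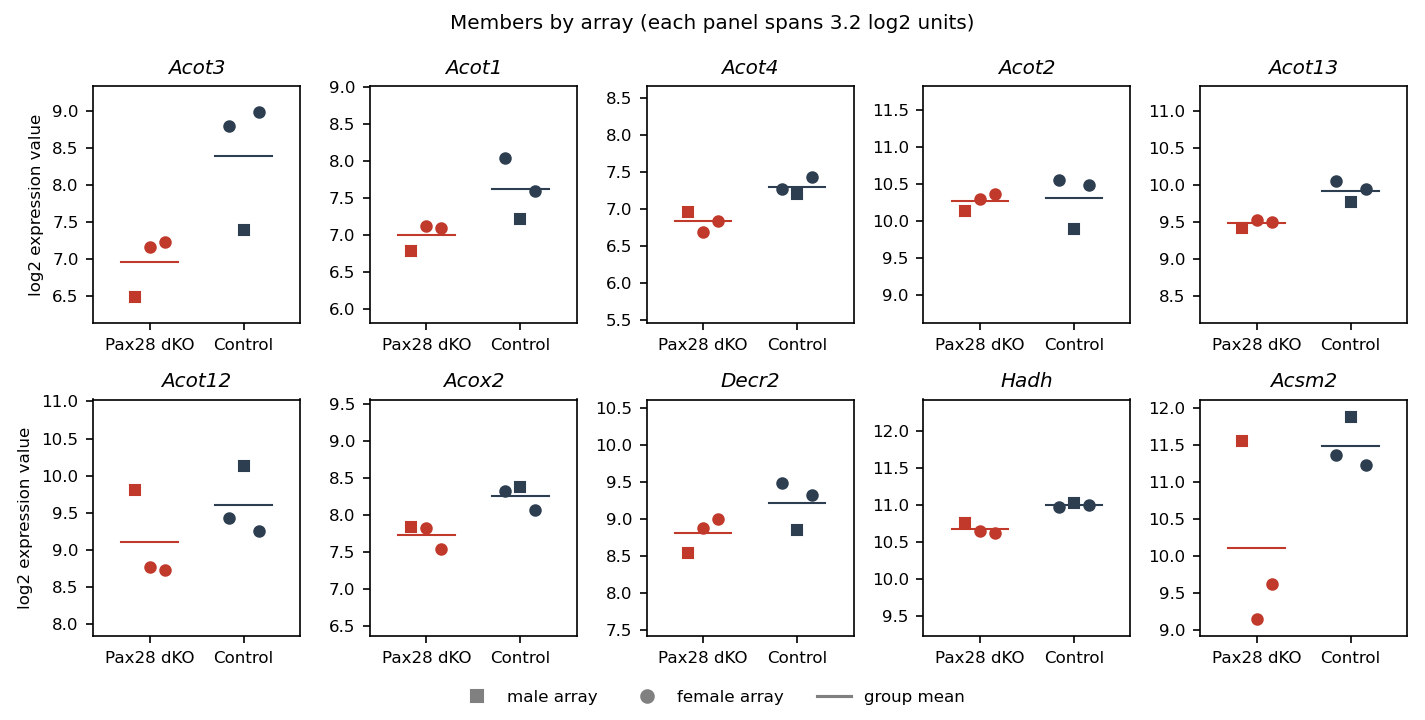
Log2 expression value on each array for the 8 genes called lower, with Acot2 and Acsm2, which were not called; squares are male arrays, circles female arrays and lines group means of 3 arrays, with the arrays labelled Pax28 dKO left of Control and the same span of log2 units in each panel. The groups lie apart for Acot3, Acot1, Acot4, Acot13, Acox2 and Hadh and overlap for Acot12, Decr2, Acot2 and Acsm2.

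In peroxisomes, 4 of the 10 measured genes were lower: Acot3, Acot4, Acox2 and Decr2, with a median log2 difference of −0.23 over the 10. Crat, Ech1 and Eci2, assigned to both mitochondria and peroxisomes, were not called. These 3 are left out of the count here and of the mitochondrial count below. Of all genes tested, 3.08% were called lower. Acot3 and Acot4 are also among the thioesterases counted above. Acox2 encodes the oxidase that starts the shortening of branched chains and bile acid intermediates. It had log2 values of 7.84, 7.82 and 7.55 on the arrays labelled Pax28 dKO, against 8.33, 8.38 and 8.07 in Control, with no overlap. The fall was 1.44-fold, −0.53 ± 0.11 on the log2 scale (limma adjusted p = 0.039), and its size was nearly the same within males (−0.54) and within females (−0.52).

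Decr2, the peroxisomal 2,4-dienoyl-CoA reductase needed for polyunsaturated chains, had log2 values of 8.54, 8.87 and 8.99 on the arrays labelled Pax28 dKO and 9.48, 8.85 and 9.32 in Control. The male Control lay below both female arrays labelled Pax28 dKO, so the groups overlapped. The difference with sex in the model was −0.42 ± 0.09, a 1.33-fold fall (limma adjusted p = 0.043). Acox2 and Decr2 were above the threshold in each of the 6 fits without 1 array (adjusted p between 0.060 and 0.13 for Acox2 and between 0.075 and 0.14 for Decr2).

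The other peroxisomal oxidation genes did not pass. The log2 difference was −0.24 ± 0.08 for Acox3, a second branched-chain oxidase, −0.22 ± 0.12 for the thiolase Acaa1b, −0.15 ± 0.08 for the bifunctional enzyme Ehhadh and 0.07 ± 0.08 for the bifunctional enzyme Hsd17b4 (limma adjusted p between 0.13 and 0.70). Ehhadh was lower on each array labelled Pax28 dKO (10.69, 10.52 and 10.53) than in Control (10.76, 10.73 and 10.70). Crot, which makes carnitine esters of the shortened chains, differed by 0.02 ± 0.12, and Pex11a, which acts in peroxisome division, by 0.09 ± 0.11.

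In mitochondria, 2 of the 20 measured genes were lower, Acot13 and Hadh, with a median log2 difference of −0.13. Without the thioesterases Acot2 and Acot13, 1 of 18 was lower, beside 3.08% of all genes tested. At an unadjusted limma p below 0.05, 5 of the 18 were lower and 0 higher, beside 10.5% and 11.6% of all genes tested. In 7 of the 18 all arrays labelled Pax28 dKO lay below all Control arrays, beside 10.8% of all genes tested. A negative difference was seen in 15 of the 18, beside 51.6% of all genes tested. The 12 genes of the oxidation cycle and its electron transfer (4 acyl-CoA dehydrogenases, 5 enzymes of the later steps and 3 electron carriers) had 1 call, Hadh, and a median of −0.11. Their differences lay between −0.33 and 0.10, and no 95% interval of the 12 went below −0.58 or above 0.35. Hadh, the dehydrogenase of short and medium 3-hydroxyacyl-CoA, had log2 values of 10.75, 10.64 and 10.62 on the arrays labelled Pax28 dKO and 10.97, 11.03 and 10.99 in Control. The groups were narrow and apart. The fall was 1.26-fold, −0.33 ± 0.07 on the log2 scale (limma adjusted p = 0.048), and it was above the threshold without any 1 array (adjusted p between 0.10 and 0.15) and after quantile normalization.

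Among the acyl-CoA dehydrogenases, which open each round, the log2 difference was −0.24 ± 0.08 for Acadm (medium chains), −0.23 ± 0.08 for Acads (short chains), −0.16 ± 0.10 for Acadvl (very long chains) and −0.06 ± 0.08 for Acadl (long chains), and none passed (limma adjusted p between 0.14 and 0.69). Acadm lay lower on each array labelled Pax28 dKO (11.89, 11.62 and 11.72) than in Control (11.90, 12.04 and 12.01). The subunits of the trifunctional protein differed by −0.04 ± 0.09 (Hadha) and 0.10 ± 0.10 (Hadhb), the hydratase Echs1 by −0.05 ± 0.08 and the thiolase Acaa2 by −0.25 ± 0.14. Hadhb had log2 values of 4.73 to 5.11 on the 6 arrays and Hadha 10.35 to 10.91. How well the Hadhb cluster measures its gene was not tested. Of the genes that pass electrons to the respiratory chain, Etfb differed by −0.26 ± 0.11, Etfdh by −0.05 ± 0.08 and Etfa by 0.01 ± 0.09. None of these 7 genes passed (limma adjusted p between 0.24 and 0.97).

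None of the 5 carnitine shuttle genes passed, with a median log2 difference of −0.09. Cpt1a, the regulated entry step, had log2 values of 10.20, 10.17 and 10.20 on the arrays labelled Pax28 dKO and 10.26, 10.35 and 10.24 in Control. The groups lay apart by little, and the difference was −0.09 ± 0.07 (95% interval −0.27 to 0.08; limma adjusted p = 0.54). Cpt2, on the inner membrane, differed by −0.19 ± 0.11, the carrier Slc25a20 by −0.05 ± 0.09 and Crat, the carnitine acetyltransferase of mitochondria and peroxisomes, by −0.25 ± 0.09 (adjusted p = 0.15).

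Of the enzymes that rearrange double bonds, Decr1, the mitochondrial counterpart of Decr2, had log2 values of 7.59, 7.62 and 7.63 on the arrays labelled Pax28 dKO, against 7.91, 7.82 and 7.88 in Control. These groups lay apart, but the difference of −0.26 ± 0.07 did not pass (limma adjusted p = 0.092). The isomerases differed by −0.21 ± 0.08 (Ech1), 0.00 ± 0.09 (Eci1) and 0.11 ± 0.09 (Eci2), the highest value of the 38 genes.

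Acsm2, a mitochondrial medium-chain acyl-CoA synthetase of the proximal tubule, is shown by array on account of its values. Its log2 values were 11.56, 9.14 and 9.62 on the arrays labelled Pax28 dKO, against 11.36, 11.88 and 11.22 in Control. Both female arrays labelled Pax28 dKO lay below every other array, and the male array labelled Pax28 dKO lay among the Control arrays. The difference was −1.38 ± 0.32 (limma adjusted p = 0.0504), −1.91 within females and −0.32 within males. In females only it passed (limma adjusted p = 0.0060). Without 1 array at a time it passed in 2 of 6 fits, both of them that same females-only fit. In all, 6 of 16 alternative fits called Acsm2. The genotype by sex term had an unadjusted p of 0.0020, the smallest of the 38 genes, and an adjusted p of 0.44.

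The regulators did not pass. Ppara differed by −0.08 ± 0.13 on the log2 scale (95% interval −0.38 to 0.23) and Ppargc1a, a coactivator of PPARα and of mitochondrial genes, by −0.19 ± 0.09 (limma adjusted p = 0.29). Fabp1, the liver-type fatty acid binding protein, differed by 0.00 ± 0.18 between genotypes (95% interval −0.42 to 0.42).

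By sex, 5 of the 38 genes differed at a limma adjusted p below 0.05, beside 1.25% of all genes tested that were higher in males and 0.618% that were higher in females. Acot12 (0.92 ± 0.10 male minus female, adjusted p = 0.012), Acox3 (0.80 ± 0.08, adjusted p = 0.0090) and Crot (0.74 ± 0.13, adjusted p = 0.048) were higher on male arrays. Fabp1 (−1.62 ± 0.19, adjusted p = 0.014) and Acot3 (−1.10 ± 0.18, adjusted p = 0.040) were lower on male arrays. Fabp1 had a log2 value of 3.19 on the male and 4.92 and 4.52 on the female arrays labelled Pax28 dKO, against 3.07 on the male and 5.07 and 4.48 on the female Control arrays. Each sex effect rests on 2 male arrays, and without 1 array at a time 1 to 3 of the 38 genes were called.

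All 8 genes that were lower had negative differences within males and within females, and the difference was larger within females for 7 of the 8, all but Acox2. The 8 were called on these same arrays, so their shared sign is no separate check. Of all 38 genes, 26 had negative differences within both sexes. Acot3 differed by −1.70 within females and −0.91 within males (limma's genotype by sex term, unadjusted p = 0.0063, adjusted p = 0.59). No genotype by sex term among the 38 passed the limma threshold, and 1 gene of all 22180 (0.00451%) passed. At an unadjusted p below 0.05 there were 4 of the 38, beside 6.99% of all genes tested, a share close to it. The male difference is a single pair of arrays, so it has no replicate check.

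**Figure D3:**
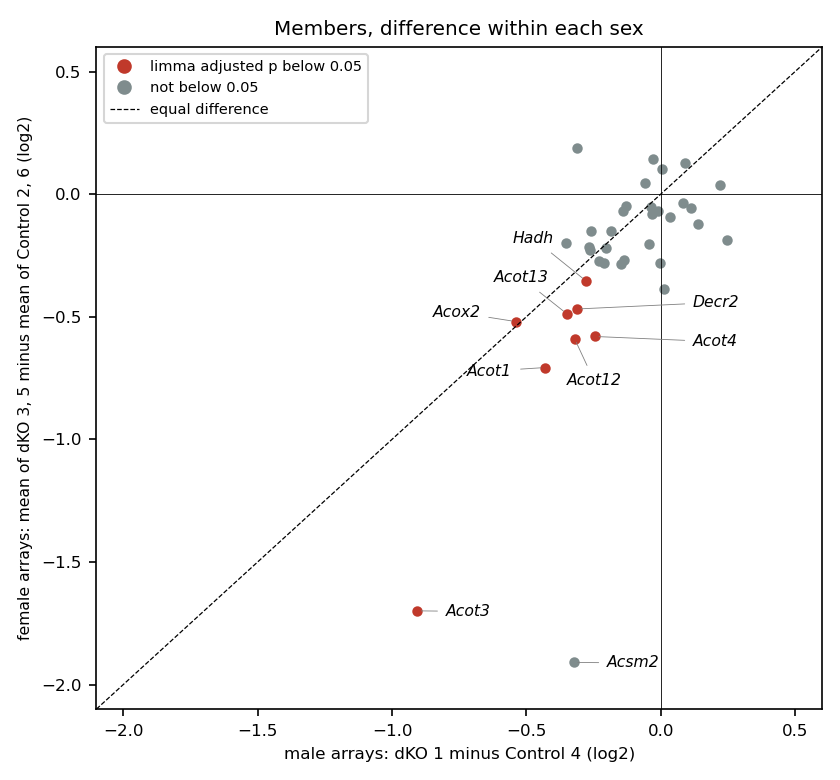
Log2 difference between arrays labelled Pax28 dKO and Control within males (horizontal, 1 array against 1) and within females (vertical, means of 2 against 2) for the 38 measured genes; points below the dashed line have a lower difference in females. The 8 genes in red had a limma adjusted p below 0.05 and lie below 0 on both axes; Acsm2 has −1.91 within females and −0.32 within males.

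Cell type markers also differed between the groups. Among 20 proximal tubule marker genes, 4 were lower (Slc5a2, the glucose transporter of the early tubule, by −2.95 ± 0.26; Slc5a12 by −1.65 ± 0.24; Miox by −0.92 ± 0.10; Slc34a1 by −0.47 ± 0.08) and none was higher, with a median of −0.35. Of all genes tested, 3.08% were called lower and 4.12% higher. With an unadjusted limma p below 0.05, 12 of the 20 markers were lower and 2 were higher. At that level 10.5% of all genes tested were lower and 11.6% higher. The mean log2 level of the 20 was 10.73, 9.68 and 9.87 on the arrays labelled Pax28 dKO, against 10.57, 10.96 and 10.58 in Control. The female arrays labelled Pax28 dKO, replicates 3 and 5, were thus the low ones, as they were for Acsm2. The male array lay within the Control range of this mean, which Slc7a13 raises on male arrays. Slc7a13 had log2 values of 10.73 and 10.93 on the male arrays and 3.95 to 4.63 on the female arrays. The median over the 20 genes of the value minus the Control mean was −0.06 on the male array labelled Pax28 dKO. It was −0.61 and −0.51 on the female ones and −0.01 on each Control array. Of 17 macrophage and myeloid markers, 14 were higher and none lower (Cd14 by 2.00 ± 0.10, Cd68 by 1.27 ± 0.11), and their mean level was 6.41 to 7.20 on the arrays labelled Pax28 dKO, against 5.51 to 5.65 in Control. Of 12 thick limb and distal tubule markers, 1 was called, Pvalb, which was higher by 0.52 ± 0.10 and was above the threshold in 5 of 6 fits without 1 array. At an unadjusted p below 0.05, 3 of the 12 were lower and 3 higher, with a median log2 difference of 0.01. In all 6 fits without 1 array, 2 of the 4 tubule calls and 6 of the 14 myeloid calls held. In RNA of kidney pieces, fewer cells of a type and less RNA per cell cannot be told apart. The part that these marker changes have in the oxidation genes was not tested.

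Ucp1, which defines brown fat, had log2 values of 5.12, 4.74 and 3.87 on the arrays labelled Pax28 dKO, against 7.77, 3.53 and 7.53 in Control, so it was high on the female Control arrays, replicates 2 and 6. The mean level of 13 brown fat markers was 4.25 to 4.50 on the arrays labelled Pax28 dKO and 5.02, 4.02 and 5.09 in Control. Of these 13, Zic1 (−0.44 ± 0.09) and Ppargc1b (−0.60 ± 0.10) were called lower, and Ucp1 was not (limma adjusted p = 0.35). The share called lower among all genes tested was 3.08%. Ppargc1b was highest on the male Control array (6.72). Of 10 white fat markers, 0 passed. Their mean level was 6.72, 7.16 and 6.40 on the arrays labelled Pax28 dKO, against 7.26, 6.25 and 7.01 in Control. That mean too was lowest on the male Control array. Zic1 was above the threshold in all 6 fits without 1 array and Ppargc1b in 5 of them. Zic1 had log2 values of 2.73, 2.65 and 2.66 on the arrays labelled Pax28 dKO, against 2.98, 3.12 and 3.24 in Control, close to the dim limit of 2.98 (the 25th percentile of gene means), and unlike Ucp1 it was not low on the male Control array. Brown fat burns fatty acids, and its part in the Control levels was not tested. With Control 2 and 6 left out, 1 Control array remained, no gene of the 22180 passed, and the 8 differences were −0.91 for Acot3, −0.54 for Acox2, −0.43 for Acot1, −0.35 for Acot13, −0.32 for Acot12, −0.31 for Decr2, −0.28 for Hadh and −0.24 for Acot4.

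**Figure D4:**
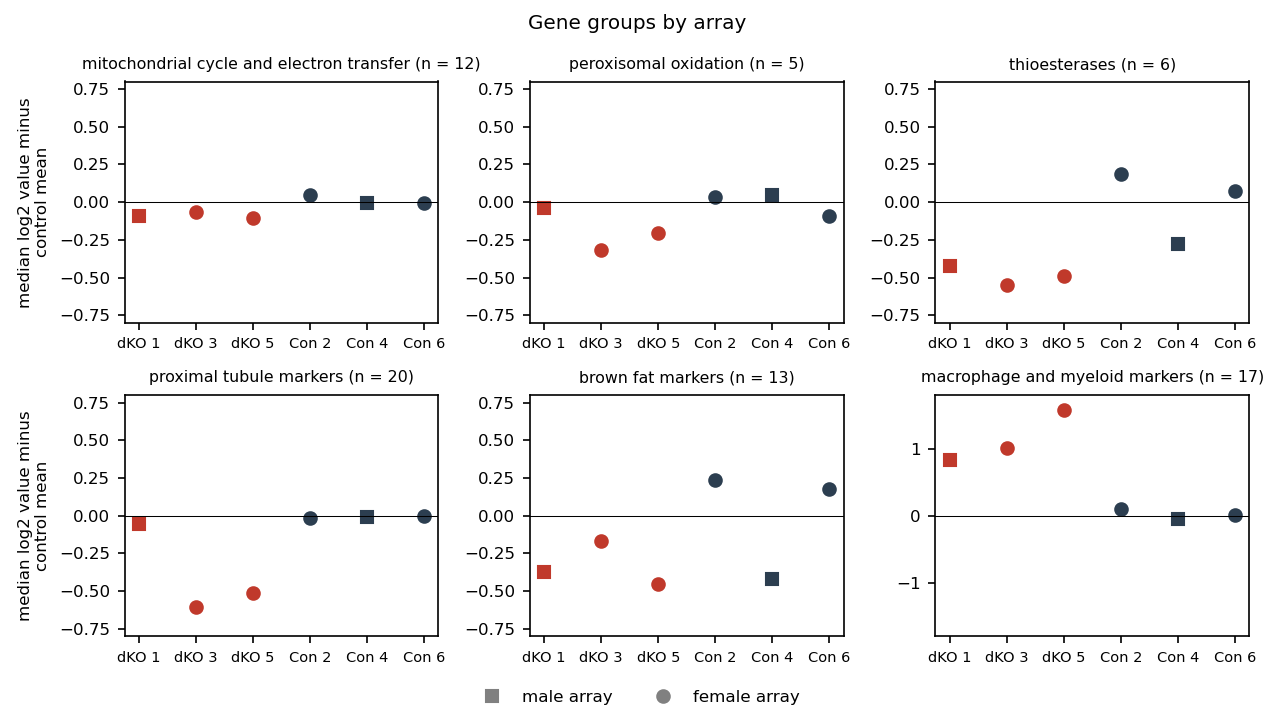
Median over each gene group of the log2 value minus the Control mean, for each array (dKO 1, 3 and 5 are the arrays labelled Pax28 dKO, Con 2, 4 and 6 the Control arrays; squares male, circles female); the macrophage panel has a wider axis. Thioesterases lie at −0.42, −0.55 and −0.49 on the arrays labelled Pax28 dKO and at 0.19, −0.28 and 0.08 in Control. The mitochondrial cycle lies at −0.09, −0.07 and −0.11 on the arrays labelled Pax28 dKO and at 0.05, −0.01 and −0.01 in Control. In both panels the groups lie apart, by less in the mitochondrial cycle.

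Of 35 further fatty acid oxidation genes, 7 were lower and 2 higher (limma adjusted p below 0.05), beside 3.08% and 4.12% of all genes tested. Their median log2 difference was −0.17. Hacl1, a peroxisomal lyase of 2-hydroxy and phytanic acid chains, had log2 values of 7.31, 8.09 and 8.14 on the arrays labelled Pax28 dKO, against 9.25, 7.96 and 9.07 in Control. As with Acot3, the male array was the lowest of each group. Its fall was 1.88-fold, −0.91 ± 0.11 (adjusted p = 0.0089), and of the 9 genes it alone was called without any 1 array. Acad9 (−0.48 ± 0.08, adjusted p = 0.020), Acsm5 (−0.71 ± 0.12, adjusted p = 0.024) and the ketone body dehydrogenase Bdh1 (−0.45 ± 0.09, adjusted p = 0.030) were lower. The acyl-CoA synthetase Acsl4 was higher (0.55 ± 0.09, adjusted p = 0.017). The remaining calls were Acss1, Acss2 and Amacr, which were lower, and Acsl5, which was higher; these 4 were named after their values were seen, because the calls are few.

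Of 11 other acyl-CoA thioesterases, Them7 was lower (−1.27 ± 0.20, limma adjusted p = 0.018) and Them6 higher (0.49 ± 0.09, adjusted p = 0.028). Beside these calls, 3.08% of all genes tested were lower and 4.12% higher. Acot6, which comes after Acot3 and Acot5 on chromosome 12, had log2 values of 6.35, 6.20 and 6.37 on the arrays labelled Pax28 dKO, against 6.62, 6.58 and 6.61 in Control. These groups lay apart, and the difference of −0.30 ± 0.08 did not pass (adjusted p = 0.089).

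Of 24 further PPARα target genes, 2 were lower and none higher: the lipase Mgll (−0.80 ± 0.10, limma adjusted p = 0.0099) and the pantetheinase Vnn1 (−0.56 ± 0.10, adjusted p = 0.028). Pdk4, which restrains glucose oxidation, had a difference of 0.70 ± 0.26 that did not pass (adjusted p = 0.17). Of 24 nuclear regulators of oxidation, Ppargc1b, a relative of Ppargc1a, was the only one called. It had log2 values of 5.87, 5.92 and 6.04 on the arrays labelled Pax28 dKO and 6.42, 6.72 and 6.49 in Control, a difference of −0.60 ± 0.10 (adjusted p = 0.024). Hnf4a, a nuclear receptor of the proximal tubule, differed by −0.52 ± 0.14 (adjusted p = 0.086), Esrrb by −0.39 ± 0.09 (adjusted p = 0.060) and Esrrg by −0.28 ± 0.07 (adjusted p = 0.076). Of 16 genes of peroxisome assembly and division, Pex10, of the import machinery, was lower (−0.39 ± 0.08, adjusted p = 0.041) and none was higher. The shares to set beside each list of this paragraph are those of all genes tested, 3.08% called lower and 4.12% higher. Without 1 array at a time, none of the calls among the other thioesterases, the PPARα targets, the regulators and the peroxisome assembly genes held in all 6 fits.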

How the data were processed

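RNA of 6 kidney samples was measured on 1 array each. The deposited values are the authors' log2 expression values for 41345 transcript clusters; the submitters' processing notes name RMA, limma and R 3.4.0 without their roles, and the array files' genome build is not given in the sources used here. Of these clusters, 23521 have 1 gene symbol, 1814 several and 16010 none. Only those with 1 symbol were tested; 23328 of them matched a RefSeq table of GRCm38.p6, no symbol changed, and 1082 genes had more than 1 cluster. Values were used as deposited in limma 3.58.1 (R 4.3.3) with genotype and sex (3 residual degrees of freedom) and Benjamini-Hochberg adjustment over 22180 genes at 0.05. Errors are moderated SE, and intervals are at 95%. The number of arrays limits the precision.

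Genes given by array were those called, those with non-overlapping groups among the largest differences, and Acsm2 with others chosen after their values were seen; of each other list, up to 5 with the smallest p could be named. The genes and lists were chosen with earlier results of these data known. Promoter sequences are from RefSeq. The labels and the table used here name no batch, so none was tested.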

Additional observations from a re-analysis of the deposited data

How the results depend on the processing

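No paired analysis was possible because the groups share no replicate numbers. There were 16 alternatives. The count of the 38 genes called lower, 8 in the main fit, was 0 in the model without sex and 1 with every row tested. In females only it was 4: Acot3, Acot4 and Acot12 of the 8, and Acsm2, which is not among the 8. The trended and robust prior gave 10, the 8 with Acadm and Decr1. Array weights, median centring and removal of dim genes also called Acsm2. With 1 array left out the count was 1 to 4. It was 1 without Control 2, without Control 6, without Pax28 dKO 3 and without Pax28 dKO 5. The count called higher was 0 in all 16. The 1596 genes called of all 22180 became 471 without sex, 302 with every row tested, 0 without both of Control 2 and 6 (1 residual degree of freedom) and 344 to 1249 with 1 array left out. The median of the 38 genes (−0.19) lay between −0.22 and −0.11 with 1 array left out, and at −0.11 without Control 2. Without Control 2 and 6 the median of the mitochondrial genes was −0.047 (−0.13 with all arrays) and that of the thioesterases −0.34 (−0.48). The peroxisomal median stayed between −0.29 and −0.17. The 5 genes called by sex became 9 with the trended and robust prior, 1 with every row tested and 1 to 3 with 1 array left out. Acot3 was called in 14 of 16 alternatives; its adjusted p was 0.14 without sex and 0.27 without Control 2 and 6. The differences of the 8 genes stayed negative in all 16, which use the arrays on which the 8 were called. Ucp1 turned to 1.58 with Control 2 and 6 left out. Leaving out either male array gives the females-only fit. The causes of these changes were not tested beyond the fewer samples or the larger number of tests that a setting brings.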

Other observations

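Of 17 fatty acid synthesis genes, Mlxipl, the carbohydrate-response transcription factor, was the only one called. It was lower, as were 3.08% of all genes tested. It had log2 values of 8.18, 7.49 and 7.57 on the arrays labelled Pax28 dKO, against 8.39, 8.97 and 8.16 in Control, and the groups overlapped because the male array was the highest of each. The difference was −0.76 ± 0.09 (limma adjusted p = 0.0089), with −0.78 within males and −0.74 within females, and it passed without any 1 array (adjusted p between 0.026 and 0.044). Fasn, the fatty acid synthase, differed by −0.69 ± 0.16 (adjusted p = 0.057) and Acly, which makes cytosolic acetyl-CoA, by 0.37 ± 0.09 (adjusted p = 0.056).

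Of 9 liver markers, Ttr (1.61 ± 0.23) and Cyp3a11 (1.11 ± 0.23) were higher and Apoa2 (−0.48 ± 0.10) was lower (limma adjusted p between 0.015 and 0.038). Of 8 adrenal markers, Fdx1 was lower (−0.39 ± 0.08), and of 12 muscle markers, Myl1 was lower (−0.47 ± 0.09). Over all genes tested, 3.08% were called lower and 4.12% higher. Without 1 array at a time, Apoa2, Fdx1 and Myl1 were above the threshold in all 6 fits, Cyp3a11 in 4 and Ttr in 1.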
